A study of Mus musculus with 14 samples.

Results

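The genes described here are the components and regulators of the actin cytoskeleton that SRF and its coactivators of the MRTF family are known to control. The list holds 37 genes, and 36 of them were measured, of 12393 genes on the array. Signals come from probesets, groups of short probes designed for 1 RNA, and a gene with several of them was represented by the brightest, the one with the highest mean over all 14 arrays. The 36 genes have 76 probesets, and 20 of them have more than 1. Filip1l was the 1 member for which no probeset carried its symbol alone.

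The RNA came from B16-F10, a mouse melanoma line of the C57BL/6J strain, grown in RPMI medium with serum. The treated groups were 3 arrays of cells given Lipofectamine 2000 for 3 h in Opti-MEM without plasmid and then 30 min in medium with serum, 3 arrays of cells heated to 42.5 °C for 1 h with 30 min of recovery, and 3 arrays of cells kept in 40 mM benzyl alcohol, an agent that makes membranes more fluid, for 1 h at 37 °C. Recovery after benzyl alcohol is given as 180 min in one description of the study and as 30 min in another. The reference was 5 arrays of untreated cells, so the effect of the liposomes and that of the change of medium cannot be told apart. All arrays are labelled as biological replicates of 1 cell line. In the deposited log2 signals, array medians lay between 7.03 and 7.12 and single signals between 2.67 and 14.1. Markers of melanoma cells were present in every array (Pmel, Tyr, Tyrp1, Dct, Sox10 and Mitf, with a summed signal of 14.74 to 15.22 on the log2 scale), while those of fibroblasts, smooth muscle, epithelium and macrophages summed to between 8.15 and 9.55. Of the markers, Sox10 and Tyr fell with heat shock (log2 differences -0.98 and -0.39), Smtn fell with Lipofectamine and with heat shock (-0.63 and -0.57), and Cd68 rose with benzyl alcohol (0.90). Mitf, the master regulator of melanocytes, was 1.72 higher with benzyl alcohol than with Lipofectamine and 1.76 higher than with heat shock (adjusted p = 0.0212 and 0.0313). Control replicates 1 and 3 differed from control replicates 2, 4 and 5 by -1.78 in Mitf, -0.76 in Sox10, -0.58 in Smtn and -0.27 in Tyr. Their part in the results was not tested. Less RNA per cell and fewer cells that express a gene cannot be told apart in these bulk samples.

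SRF is a transcription factor that binds a short DNA element, the CArG box, together with partner proteins. The MRTF partners bind unpolymerised actin and stay inactive while it is plentiful. When actin polymerises they enter the nucleus and, with SRF, switch on genes of actin filaments, stress fibres and focal adhesions. SRF also works with another class of partners, the ternary complex factors, at early genes such as Fos and Egr1.

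Sequences around the CArG boxes are given because the box is the element that SRF binds. A box was read as a pair of C, a run of A or T and a pair of G, 10 bases in all, on either strand, in RefSeq promoter windows of GRCm38.p6 that reach from 250 bases before to 50 bases after a start site. Of the 37 genes, 32 had a window, and 8 of these (25%) held a box, beside 1.81% of the 27025 genes with a window. Actb, Actg2, Tagln, Tgfb1i1 and Tuft1 had no window to read. The genes were listed as known targets of SRF and MRTF, so a share above that of all genes is no independent result. The box stands in capitals within 30 bases of the gene's own strand, 5′ to 3′.
Srf, first box (chr17:46556225-46556254, minus strand): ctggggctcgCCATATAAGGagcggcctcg
Srf, second box (chr17:46556205-46556234, minus strand): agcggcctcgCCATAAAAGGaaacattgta
Actg1 (chr11:120348566-120348595, minus strand): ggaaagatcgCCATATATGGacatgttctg
Vcl (chr14:20929161-20929190, plus strand): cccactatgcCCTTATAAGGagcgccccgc
Cnn2 (chr10:79988534-79988563, plus strand): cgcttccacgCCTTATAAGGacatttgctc
Myl9 (chr2:156775293-156775322, plus strand): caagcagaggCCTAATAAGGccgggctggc
Filip1l (chr16:57549170-57549199, plus strand): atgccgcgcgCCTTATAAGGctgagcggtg
Counted from the start site, the first base of the box lay at -82 and -62 in Srf, -90 in Actg1, -227 in Vcl, -56 in Cnn2, -161 in Myl9 and -62 in Filip1l. Vcl, Cnn2 and Filip1l held the same 10 letters. Fhl1 and Fhl2 were the other genes with a box. A match is a description of letters and does not show that SRF is bound.

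None of the 36 genes passed the test in Lipofectamine-treated cells against control cells, 2 fell in heat-shocked cells, and none passed in benzyl alcohol-treated cells. The test was limma with Benjamini-Hochberg adjustment over 22626 probesets and a threshold of 0.05 on the adjusted p. Over all genes measured by their brightest probeset, 5.02% passed with Lipofectamine, 5.04% with heat shock and 1.42% with benzyl alcohol. The shares of the members, 0%, 5.56% and 0%, were close to or below these. At an unadjusted p under 0.05, 4 members passed with Lipofectamine (11.1%), 9 with heat shock (25%) and 7 with benzyl alcohol (19.4%), beside 18.9%, 21.7% and 13.3% of all genes. The median log2 difference of the members was -0.05 with Lipofectamine, -0.03 with heat shock and 0.06 with benzyl alcohol, and that of all genes was -0.02, 0.04 and 0.02. Counting members whose treated arrays all lay outside the range of the control arrays gave 2 with Lipofectamine (Actn4 and Tgfb1i1, both lower), 5 with heat shock (Mrtfb, Fhl1 and Tgfb1i1 higher, Mrtfa and Tpm1 lower) and 3 with benzyl alcohol (Acta2 and Myl9 higher, Zyx lower), where 11%, 17.8% and 7.84% of all genes lay outside.

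**Figure D1:**
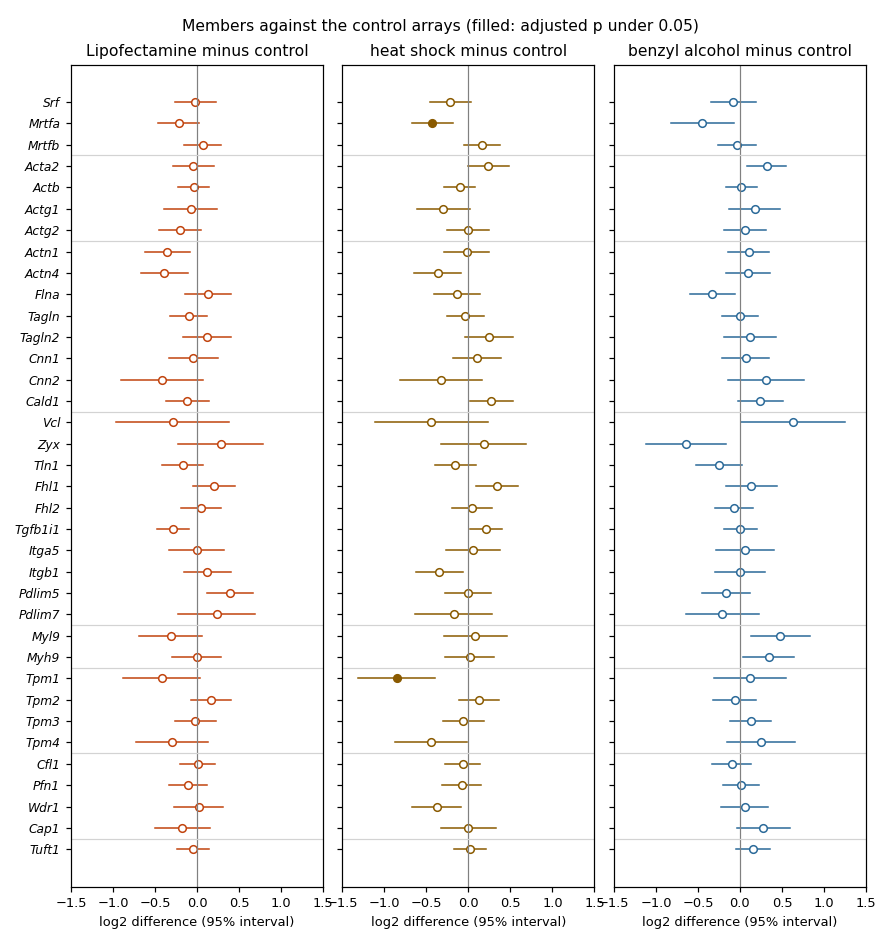
Log2 difference of each of the 36 members from the control arrays (horizontal axis) with its 95% interval from limma, in cells given Lipofectamine, heat shock or benzyl alcohol (3 arrays each, 5 control arrays), with genes grouped by role between the grey lines. Filled points passed at an adjusted p under 0.05, and these are Mrtfa and Tpm1 with heat shock.

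Of the comparisons between treatments, that of benzyl alcohol against Lipofectamine gave 6 of 36, with Actn1, Actn4 and Myl9 higher and Zyx, Flna and Pdlim5 lower, where 11.9% of all genes passed. Tpm1 was the 1 member that passed between benzyl alcohol and heat shock (higher, all genes 7.39%), and Tgfb1i1 the 1 that passed between Lipofectamine and heat shock (lower, all genes 4.18%). At an unadjusted p under 0.05 the numbers were 15, 10 and 7 (41.7%, 27.8% and 19.4% of the members), beside 24.9%, 22.4% and 18.2% of all genes. Members without overlap numbered 16 between benzyl alcohol and Lipofectamine (12 higher, 4 lower), 15 between benzyl alcohol and heat shock (11 higher, 4 lower) and 12 between Lipofectamine and heat shock (6 in each direction). These stand beside 27.6%, 32.7% and 28.1% of all genes. The median member differed by 0.11, 0.07 and -0.02 in these comparisons, and the median gene by 0.04, -0.03 and -0.07.

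Of the factors themselves, Mrtfa was lower in heat-shocked cells, while Srf and Mrtfb passed in no comparison. Mrtfa encodes a coactivator that carries the actin signal to SRF. Its log2 signal was 7.85, 8.19 and 7.93 with Lipofectamine, 7.87, 7.65 and 7.81 with heat shock, 8.08, 8.07 and 7.14 with benzyl alcohol, and 8.22, 8.20, 8.46, 8.12 and 8.05 in the control arrays. All 3 heat-shocked arrays lay below all 5 control arrays, and benzyl alcohol replicate 3 lay far below the other two of its group. The heat shock difference was -0.43 (SE 0.113, 0.743-fold, adjusted p = 0.0411 by limma). In the fit of all 14 arrays, which served benzyl alcohol, the benzyl alcohol difference was -0.45 (SE 0.177, adjusted p = 0.265), and there the heat shock difference did not pass either (adjusted p = 0.159). The heat shock call was lost in 7 of the 11 fits that left out 1 array (control 2, 4 or 5, any heat-shocked array, or Lipofectamine 1) and under 8 of 15 other alternatives.

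Srf had signals of 9.06, 8.95 and 8.90 with Lipofectamine, 8.96, 8.72 and 8.64 with heat shock, 8.92, 9.16 and 8.64 with benzyl alcohol, and 8.96, 9.18, 8.71, 9.05 and 9.05 in the control arrays. The groups overlapped throughout. The differences from control were -0.02, -0.21 and -0.08, with 95% intervals of -0.26 to 0.23, -0.46 to 0.03 and -0.35 to 0.19. A second, dimmer Srf probeset (1418255_s_at) did pass with heat shock, at -0.47 (SE 0.126, adjusted p = 0.0426 by limma), and was 0.53 higher with benzyl alcohol than with heat shock (adjusted p = 0.0318). Mrtfb, the other coactivator of the family, had signals of 6.91, 6.70 and 7.04 with Lipofectamine, 6.96, 7.01 and 6.96 with heat shock, 6.57, 6.84 and 6.92 with benzyl alcohol, and 6.66, 6.94, 6.85, 6.91 and 6.73 in the control arrays. Its 3 heat-shocked arrays lay just above the control range, by 0.16 in the mean (SE 0.101, adjusted p = 0.359).

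The 4 actins measured, which form the filaments, passed in no comparison. Actb, the main cytoplasmic actin, had 13.31, 13.37 and 13.35 with Lipofectamine, 13.14, 13.40 and 13.28 with heat shock, 13.40, 13.49 and 13.30 with benzyl alcohol, and 13.36, 13.40, 13.28, 13.44 and 13.43 in the control arrays. The 95% intervals of its differences from control were -0.23 to 0.15 with Lipofectamine, -0.29 to 0.08 with heat shock and -0.16 to 0.20 with benzyl alcohol. Signals at this height are near the top of the array's range. A much dimmer Actb probeset (1419734_at, mean signal 7.15) was 0.94 higher with heat shock than in the control arrays (SE 0.217, adjusted p = 0.0252), and in benzyl alcohol it was 0.89 lower than with Lipofectamine and 1.14 lower than with heat shock (adjusted p = 0.0242 and 0.0143). Actg1, Acta2 and Actg2 differed from control by -0.30 to 0.32 over the 3 treatments.

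Tropomyosin 1, which lies along the actin filament and steadies it, gave the largest difference from control of any member, each read from its brightest probeset. Tpm1 had signals of 10.54, 10.73 and 10.26 with Lipofectamine, 10.11, 10.08 and 10.06 with heat shock, 11.15, 11.04 and 10.98 with benzyl alcohol, and 10.72, 11.06, 10.22, 11.22 and 11.44 in the control arrays. The heat-shocked arrays were the lowest of all 14 and lay close together, while the control arrays spread over more than 1 log2 unit. The difference from control was -0.85 (SE 0.214, 0.553-fold, adjusted p = 0.034), and benzyl alcohol was above heat shock by 0.98 (SE 0.225, 1.97-fold, adjusted p = 0.0203). Of its other probesets, 1423721_at gave -0.50 (adjusted p = 0.11) and 0.64 (adjusted p = 0.0493) in these comparisons, and the dimmest, 1456623_at, gave 0.10 and 0.32 and did not pass. Leaving out control 2, 4 or 5, any heat-shocked array or Lipofectamine 1 ended the call against control, and leaving out any heat-shocked array or benzyl alcohol 1 ended the other. Among the other tropomyosins, none passed by its brightest probeset. Dimmer Tpm3 probesets fell with heat shock (1427567_a_at by 0.56 and 1449996_a_at by 0.67, adjusted p = 0.0267 and 0.025), while the brightest was at -0.06.

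The arrays also carry Affymetrix control probesets for the 3′ and the 5′ end of Actb, whose log2 difference widens when RNA or labelling is incomplete. It ran from 0.02 to 0.11 with Lipofectamine, 0.12 to 0.39 with heat shock, -0.07 to 0.04 with benzyl alcohol and 0.06 to 0.15 in the control arrays. For Gapdh the ranges were -0.10 to -0.06, 0.01 to 0.13, -0.08 to 0.07 and -0.14 to -0.03. The heat shock range thus reached highest by both measures. For Actb this came from heat shock 1 (0.39), while heat shock 2 and 3 (0.12 and 0.14) lay within the control range. For Gapdh all 3 heat-shocked arrays (0.01, 0.04 and 0.13) lay above the control range. The part of this in the heat shock results for Mrtfa, Tpm1 and the dimmer probesets was not tested.

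Myosin light chain 9, the regulatory light chain of the contractile myosin in non-muscle and smooth muscle cells, stood apart between benzyl alcohol and Lipofectamine. Myl9 had signals of 5.28, 5.24 and 5.62 with Lipofectamine, 5.90, 5.69 and 5.75 with heat shock, 6.11, 6.14 and 6.28 with benzyl alcohol, and 5.44, 5.99, 5.19, 5.99 and 5.87 in the control arrays. All benzyl alcohol arrays were above every other array. The mean signal of 5.75 is low, near that of the smooth muscle markers Myh11 and Myocd (5.89 and 5.81 in the control arrays). It may be partly background. Benzyl alcohol exceeded Lipofectamine by 0.80 (SE 0.185, 1.74-fold, adjusted p = 0.012) and control by 0.48 (SE 0.166, adjusted p = 0.188). The first of these calls was lost in 1 of 14 fits, that without Lipofectamine 1 (adjusted p = 0.0553). Myh9, the heavy chain, differed between benzyl alcohol and Lipofectamine by 0.35 (adjusted p = 0.191).

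The alpha-actinins, which tie parallel filaments into bundles, were higher with benzyl alcohol than with Lipofectamine. Actn4 had 10.74, 10.66 and 10.71 with Lipofectamine, 10.72, 10.67 and 10.79 with heat shock, 11.15, 11.28 and 11.12 with benzyl alcohol, and 10.76, 11.15, 10.90, 11.22 and 11.42 in the control arrays. Lipofectamine lay wholly below the control range, by 0.39 in the mean, without passing. Actn1 had 8.94, 9.19 and 9.10 with Lipofectamine, 9.35, 9.40 and 9.47 with heat shock, 9.60, 9.49 and 9.50 with benzyl alcohol, and 9.08, 9.42, 9.39, 9.57 and 9.69 in the control arrays. Benzyl alcohol exceeded Lipofectamine by 0.48 in Actn4 (SE 0.138, adjusted p = 0.0325) and by 0.46 in Actn1 (SE 0.131, adjusted p = 0.0334). The other 2 probesets of Actn1 gave 0.02 and -0.13, so its call rests on the brightest. Both calls were lost without any 1 of the benzyl alcohol arrays or without Lipofectamine 1 or 3, and that of Actn4 also without Lipofectamine 2.

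Filamin A, which links filaments into networks at right angles, went the other way. Flna had 9.43, 9.66 and 9.17 with Lipofectamine, 9.03, 9.24 and 9.19 with heat shock, 9.10, 8.99 and 8.80 with benzyl alcohol, and 9.37, 9.04, 9.49, 9.19 and 9.37 in the control arrays. Benzyl alcohol was below Lipofectamine in all arrays, with a log2 difference of -0.46 (SE 0.141, adjusted p = 0.0459). That call was lost in 10 of 14 fits with 1 array left out, those without control 4 or 5, any heat-shocked or benzyl alcohol array, or Lipofectamine 1 or 2. Of the other crosslinkers and bundlers (Tagln, Tagln2, Cnn1, Cnn2 and Cald1) none passed by its brightest probeset. A dimmer probeset of Cald1 (1424768_at), for the filament binder caldesmon, fell by 0.67 with heat shock against control (adjusted p = 0.037), where the brightest gave 0.27 (adjusted p = 0.197).

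**Figure D2:**
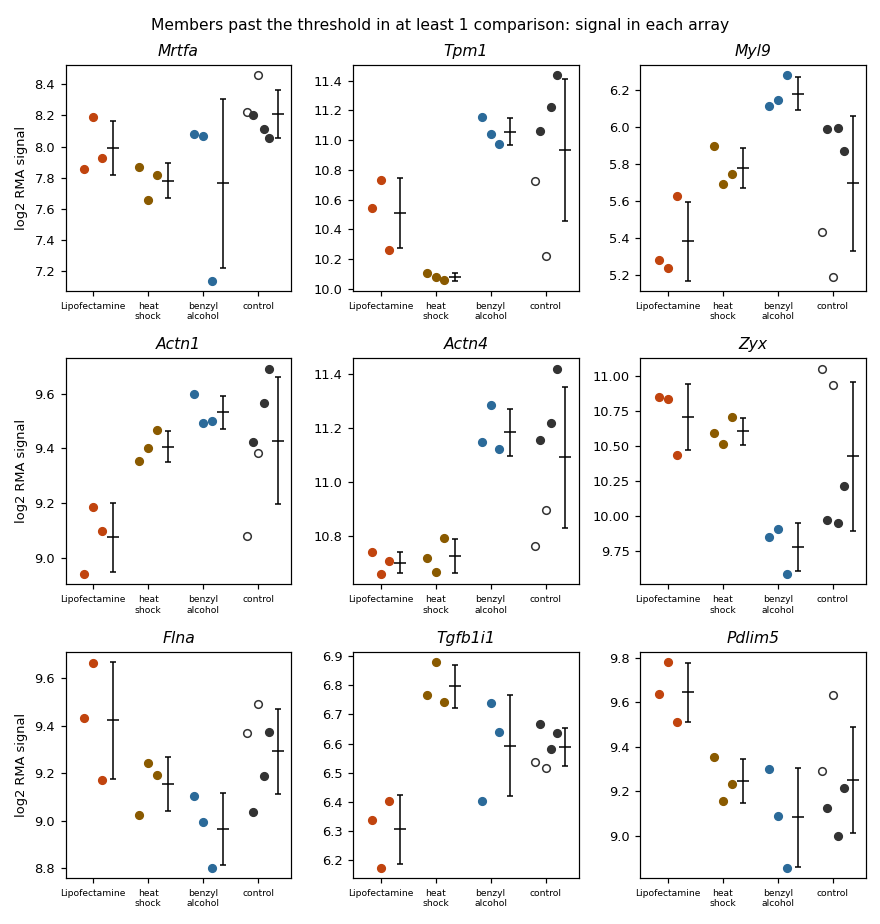
Log2 RMA signal (vertical axis, scaled to each gene) of the 9 members that passed in at least 1 comparison, 1 point per array, in cells given Lipofectamine, heat shock or benzyl alcohol and in control cells, with control replicates 1 and 3 as open points. Bars beside the points give mean ± SD. The heat-shocked arrays of Tpm1 lie at 10.06 to 10.11, below all others, and the open control points lie wholly above or wholly below the filled ones in each panel but that of Flna, though in Mrtfa and Actn1 by a small gap.

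At focal adhesions, the sites where filaments are anchored to the cell membrane, Zyx, Pdlim5 and Tgfb1i1 passed in 1 comparison each. Zyxin is an adaptor that is recruited to strained filaments. Zyx had 10.85, 10.84 and 10.43 with Lipofectamine, 10.60, 10.52 and 10.71 with heat shock, 9.85, 9.91 and 9.59 with benzyl alcohol, and 11.05, 9.97, 10.94, 9.95 and 10.21 in the control arrays. Benzyl alcohol gave the lowest 3 arrays of the 14, and the control arrays fell into a high pair and a low trio. Benzyl alcohol was below Lipofectamine by -0.92 in log2 difference (SE 0.250, 0.527-fold, adjusted p = 0.0252) and below control by -0.64 (SE 0.223, adjusted p = 0.193). A second Zyx probeset (1438552_x_at) gave -0.07 between benzyl alcohol and Lipofectamine (adjusted p = 0.789). The call was lost without Lipofectamine 1 or 2 or benzyl alcohol 1 or 3.

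Tgfb1i1, also called Hic-5, is a LIM protein related to paxillin. Its signals were 6.34, 6.17 and 6.40 with Lipofectamine, 6.76, 6.88 and 6.74 with heat shock, 6.40, 6.74 and 6.64 with benzyl alcohol, and 6.54, 6.67, 6.52, 6.58 and 6.63 in the control arrays. Lipofectamine lay below and heat shock above the whole control range, without either difference from control passing. Lipofectamine was below heat shock by -0.49 in log2 difference (SE 0.0981, 0.712-fold, adjusted p = 0.0112). That call was lost without heat shock 2 (adjusted p = 0.065).

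Pdlim5, a protein with PDZ and LIM domains that binds alpha-actinin, had the most probesets and the widest disagreement among them. Its brightest probeset (1427475_a_at) read 9.64, 9.78 and 9.51 with Lipofectamine, 9.35, 9.16 and 9.23 with heat shock, 9.30, 9.09 and 8.86 with benzyl alcohol, and 9.29, 9.12, 9.63, 9.00 and 9.21 in the control arrays. Benzyl alcohol was below Lipofectamine by -0.56 in log2 difference (SE 0.150, 0.677-fold, adjusted p = 0.0235), a call lost without Lipofectamine 1 or 2 or benzyl alcohol 2 or 3. Lipofectamine was above control by 0.39 without passing (adjusted p = 0.103).

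The 6 dimmer probesets of Pdlim5 were looked at after the brightest had passed. Against control, 4 of the 6 rose with Lipofectamine, by 1.05 (1450786_x_at, adjusted p = 0.00134), 0.95 (1421413_a_at), 0.92 (1422861_s_at) and 0.74 (1422862_at). Their mean signals over all arrays were 7.21, 5.90, 5.84 and 3.80, the last not far above the lowest signal of 2.67. Probeset 1450786_x_at read 8.18, 8.32 and 7.89 with Lipofectamine, 6.94, 6.95 and 6.79 with heat shock, 7.12, 6.81 and 6.55 with benzyl alcohol, and 7.45, 6.78, 7.00, 7.10 and 7.03 in the control arrays. Every Lipofectamine array of that probeset was above all 11 others. In contrast, 1429783_at read 6.50, 6.42 and 6.39 with Lipofectamine, 6.90, 6.77 and 6.81 with heat shock, 7.12, 6.80 and 6.83 with benzyl alcohol, and 6.52, 6.53, 6.62, 6.38 and 6.65 in the control arrays. Its benzyl alcohol arrays exceeded the Lipofectamine arrays by 0.48 (adjusted p = 0.00973), while the other 6 probesets were all lower with benzyl alcohol than with Lipofectamine and passed. Between heat shock and control, and between benzyl alcohol and control, none of the 7 passed. The files do not say which transcripts of Pdlim5 the probesets report.

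**Figure D3:**
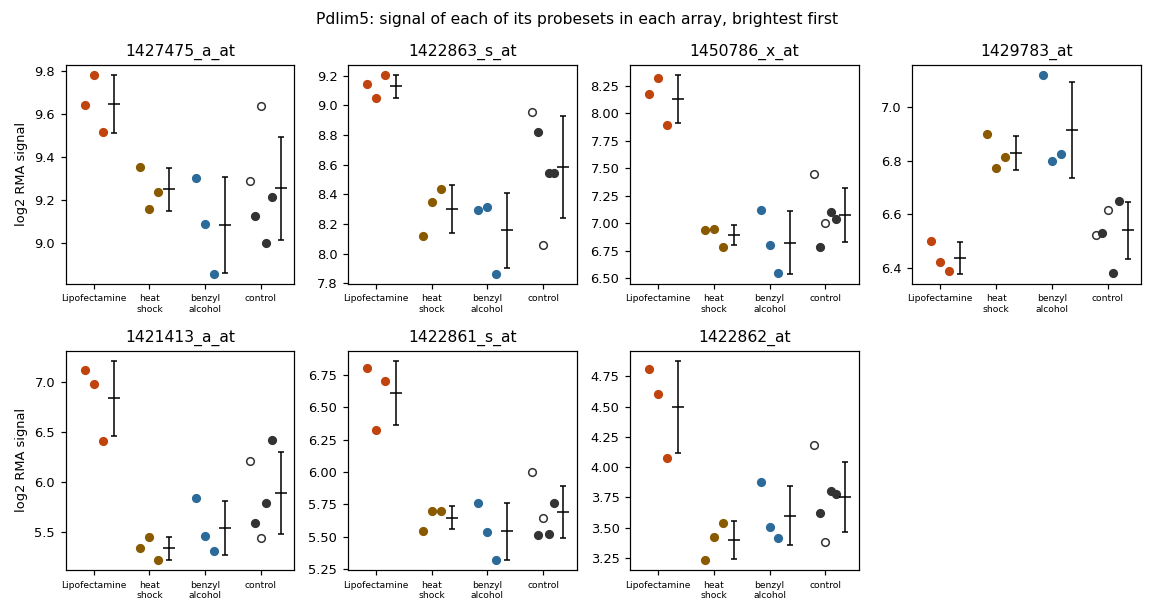
Log2 RMA signal (vertical axis, scaled to each panel) of the 7 probesets of Pdlim5, brightest first, 1 point per array, in cells given Lipofectamine, heat shock or benzyl alcohol and in control cells, with control replicates 1 and 3 as open points and bars for mean ± SD. In 6 panels Lipofectamine lies above benzyl alcohol, and in that of 1429783_at below it.

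The other focal adhesion members, Vcl, Tln1, Fhl1, Fhl2, Itga5, Itgb1 and Pdlim7, did not pass by their brightest probeset, nor did the turnover genes Cfl1, Pfn1, Wdr1 and Cap1, nor Tuft1. A dimmer Itgb1 probeset (1426918_at), for the beta chain shared by many matrix receptors, fell with heat shock (-0.53, SE 0.135, adjusted p = 0.0366), where the brightest gave -0.35 (adjusted p = 0.132). Also past the threshold were Wdr1 1437591_a_at, for a protein that helps cofilin take filaments apart, which was 0.82 higher with Lipofectamine than with heat shock (adjusted p = 0.0189), and Myh9 1417472_at, which was 0.39 higher with benzyl alcohol than with heat shock (adjusted p = 0.039). Over all 76 probesets of the members, 4 rose and 0 fell with Lipofectamine against control, 1 rose and 7 fell with heat shock, and 0 passed with benzyl alcohol. All 4 that rose with Lipofectamine belong to Pdlim5. Of all probesets tested, 4.88%, 5.96% and 1.39% passed in these comparisons. Between Lipofectamine and heat shock 8 were higher and 2 lower (5.72% of all probesets passed), between benzyl alcohol and Lipofectamine 5 and 9 (11.9%), and between benzyl alcohol and heat shock 7 and 1 (7.22%). Pdlim5 alone gave 5 of the 8 and 1 of the 2 in the first of these comparisons. In the second it gave 1 of the 5 and 6 of the 9, and in the third 0.

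The 5 control arrays were not alike in these genes, and replicates 1 and 3 stood apart from 2, 4 and 5. Between the sets 18 of 36 members (50%) did not overlap, 13 lower and 5 higher in replicates 1 and 3, where 40.4% of all genes did not overlap. The division comes from the values of these arrays, so it is described without a test. The median difference of the members was -0.10, beside -0.04 for all genes, and the median of its size without sign was 0.22, beside 0.15. Those lower in replicates 1 and 3 were Vcl, Cnn2, Tpm1, Tpm4, Myl9, Actg1, Actn4, Wdr1, Actn1, Srf, Cfl1, Tgfb1i1 and Actb. Zyx, Pdlim7, Itga5, Pdlim5 and Mrtfa were higher. Calls between treatments ran in the direction of this division too. Actn4, Actn1 and Myl9, higher with benzyl alcohol than with Lipofectamine, differed between the control sets by -0.44, -0.33 and -0.64. Zyx and Pdlim5, lower with benzyl alcohol, differed by 0.95 and 0.35, and Flna by 0.23 with overlap. Tpm1, higher with benzyl alcohol than with heat shock, differed by -0.77. The part of the division in those calls was not tested.

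Vcl, Cnn2 and Tpm4 are given in full because of this difference, after their values had been seen. Vinculin (Vcl), which couples integrin complexes to filaments, read 7.99, 7.99 and 7.72 with Lipofectamine, 7.67, 7.74 and 7.82 with heat shock and 8.75, 8.84 and 8.88 with benzyl alcohol. It read 7.18 and 7.60 in control replicates 1 and 3 and 8.55, 8.76 and 8.85 in control replicates 2, 4 and 5, a difference of -1.33. The Lipofectamine and heat shock arrays thus lay between the control sets, and benzyl alcohol lay beside replicates 2, 4 and 5. The other Vcl probeset (1416157_at, mean signal 5.40) gave -0.46 between benzyl alcohol and control and -0.29 between benzyl alcohol and Lipofectamine, where the brightest gave 0.63 and 0.92, and none of these passed. Calponin 2 (Cnn2), a binder of filaments, read 8.45, 8.56 and 8.49 with Lipofectamine, 8.58, 8.54 and 8.65 with heat shock and 9.28, 9.13 and 9.27 with benzyl alcohol, against 8.16 and 8.54 in control replicates 1 and 3 and 9.18, 9.30 and 9.40 in control replicates 2, 4 and 5. Tpm4, another tropomyosin, read 10.01, 10.07 and 9.83 with Lipofectamine, 9.66, 9.89 and 9.93 with heat shock and 10.67, 10.31 and 10.58 with benzyl alcohol, against 9.78 and 9.83 in control replicates 1 and 3 and 10.41, 10.54 and 10.78 in control replicates 2, 4 and 5. In both genes only the benzyl alcohol arrays reached the level of control replicates 2, 4 and 5 or came near it.

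**Figure D4:**
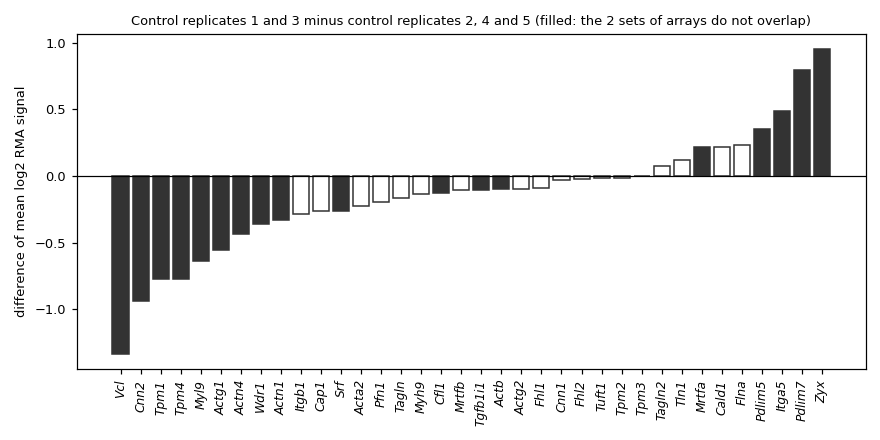
Difference of the mean log2 RMA signal of control replicates 1 and 3 from that of control replicates 2, 4 and 5 (vertical axis) for each of the 36 members, lowest to highest. Filled bars mark the 18 members whose arrays did not overlap between the sets, from Vcl at -1.33 to Zyx at 0.95.

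The count of members that passed depended on which control arrays were used. With control replicates 2, 4 and 5 alone, 12 members passed with Lipofectamine (3 higher, 9 lower), 12 with heat shock (2 higher, 10 lower) and 0 with benzyl alcohol. That is 33.3%, 33.3% and 0% of the members, beside 18.9%, 20.6% and 2.65% of all genes. With control replicates 1 and 3 alone, 0 passed with Lipofectamine, 2 with heat shock (Mrtfa and Pdlim7, both lower) and 9 with benzyl alcohol (7 higher, 2 lower), beside 4.77%, 3.56% and 13.4% of all genes. As the sets were divided by their own values, which takes spread out of the control group, these counts show how far the result depends on the control arrays and are no test of the treatments.

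Single genes show the size of this dependence. Against control replicates 1 and 3, Vcl differed by 1.44 with benzyl alcohol, 0.36 with heat shock and 0.51 with Lipofectamine. Against control replicates 2, 4 and 5 the same arrays gave 0.10, -0.98 and -0.82. Tpm1 with heat shock was at -0.39 against replicates 1 and 3 and at -1.16 against replicates 2, 4 and 5. Mrtfa with heat shock was at -0.56 and -0.34, and Zyx with benzyl alcohol at -1.21 and -0.26. These differences are given without a test, since Vcl was chosen for the gap between the control sets and the sets come from the values.

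Of the 7 measured genes with a CArG box in the window, 0 passed by the brightest probeset in any comparison with all 5 control arrays, and Myl9 passed between benzyl alcohol and Lipofectamine. Between the control sets 5 of the 7 (Srf, Actg1, Vcl, Cnn2 and Myl9) were lower in replicates 1 and 3 without overlap, and 0 were higher, where 13 of all 36 members and 20.9% of all genes were lower. Against 1 control set alone some of the 7 did pass. With control replicates 2, 4 and 5 these were Srf, Actg1, Vcl and Cnn2 with heat shock (all genes 20.6%). With Lipofectamine they were Actg1, Vcl, Cnn2 and Myl9 (all genes 18.9%). With control replicates 1 and 3 they were Actg1, Vcl, Cnn2 and Myl9 with benzyl alcohol (all genes 13.4%). As 5 of the 7 differed between the sets, and the sets come from the values, these calls are no test of the treatments.

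The other genes of the pathway were taken from 4 lists, each gene read from its brightest probeset. Of all genes, 5.02% passed with Lipofectamine, 5.04% with heat shock and 1.42% with benzyl alcohol against control. Between benzyl alcohol and Lipofectamine 11.9% passed, and between benzyl alcohol and heat shock 7.39%. One list held 15 genes, early genes of SRF and the ternary complex factors together with the factors Elk1, Elk3 and Elk4 themselves. Of the 15, 5 rose and 0 fell with Lipofectamine, with a median difference of 0.35 where that of all genes was -0.02. From these same arrays the study had already named Egr1, Egr2, Fos, Junb and Dusp6 among Lipofectamine-induced genes with an SRF site. The count is therefore no independent result, and the liposomes and the change of medium cannot be told apart in it. The leading members were Egr1 (3.05, SE 0.110, adjusted p = 6.04e-09), Fos (3.50, SE 0.169, adjusted p = 1.4e-07) and Nr4a1 (1.95, SE 0.178), which encode transcription factors. With heat shock 3 rose (Fos by 1.27, Egr1 by 0.43 and Nr4a1) and 3 fell (the ternary complex factors Elk3, by 0.99, and Elk4, and the early gene Dusp6). With benzyl alcohol Mcl1, a survival factor, rose by 0.53 and 0 fell. Between benzyl alcohol and Lipofectamine 4 were lower and 0 higher. Egr1 and Fos differed between control replicates 1 and 3 and the other controls by 0.29 and 0.28, Nr4a1 by -0.67 and Elk3 by -0.92. Junb, also counted above, differed between the control sets by 1.28. It rose by 1.49 with Lipofectamine, and its difference between benzyl alcohol and Lipofectamine was -1.24.

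Other SRF and MRTF targets of cytoskeleton and matrix numbered 28. Against control, 1 rose and 1 fell with Lipofectamine, 2 rose and 1 fell with heat shock, and 2 rose with benzyl alcohol. These stand beside 5.02%, 5.04% and 1.42% of all genes. In Lipofectamine-treated cells Ccn1, a secreted matrix protein, was 1.69 higher than in control cells and Pdlim2 0.58 lower. The liposomes and the change of medium cannot be told apart here. With heat shock Ccn1 and Tes, a focal adhesion protein, rose by 1.81 and 0.68 and Lima1, which bundles filaments, fell by 1.18. Benzyl alcohol raised Tes by 0.75 and Ccn2, a relative of Ccn1, by 2.17. Several of these also differed between control replicates 1 and 3 and the other controls, by 1.40 in Ccn1, -1.91 in Ccn2, -1.18 in Lima1 and 0.34 in Tes.

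Of 16 genes of the Arp2/3 complex, which starts branched filaments, and of its activators, 0 passed against control with any treatment, and 1 was higher with benzyl alcohol than with heat shock. Among 22 genes of monomer binding, capping and severing, Eps8 fell by 0.85 with Lipofectamine and Coro1c and Capza2 by 1.15 and 0.51 with heat shock. With benzyl alcohol 0 passed against control. The counts of both lists against control stand beside 5.02%, 5.04% and 1.42% of all genes. Of the 22, 4 were higher and 0 lower with benzyl alcohol than with heat shock (all genes 7.39%). Between benzyl alcohol and Lipofectamine 2 were higher and 1 lower (11.9%), and between Lipofectamine and heat shock 1 was higher (4.18%). Eps8, Coro1c and Capza2 were lower in control replicates 1 and 3 by -0.89, -1.05 and -0.51 in difference.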

How the data were processed

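RNA of 14 B16-F10 cultures was hybridised to Affymetrix mouse arrays. The authors read them with GCOS 1.2, per the labels, and deposited log2 signals made by RMA, which corrects background, normalizes arrays and summarizes each probeset. Its version and the arrays processed together are not given in the sources used here. Of 22690 rows, 64 Affymetrix controls were left out, and 22626 probesets were tested without a signal filter (20380 with 1 symbol, 691 with several, 1555 with none). With R 4.3.3 and limma 3.58.1, Lipofectamine and heat shock were compared on 11 arrays (prior degrees of freedom 5.51) and benzyl alcohol on all 14 (5.6), with Benjamini-Hochberg adjustment over all probesets. The fit was run on simulated data with independent noise, without the division of the control arrays. That run checks the code and not the calls given here. The number of arrays limits the precision. Detection calls were not used, so low signals may be background.

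The members and gene lists were chosen with earlier results of these data known. Another gene list is not reported here. Signals in every array are given for members that passed in at least 1 of the 6 comparisons and for Srf, Mrtfa, Mrtfb and Actb. Other probesets are given where a member passed. From each list up to 3 genes by smallest p were named per comparison. More were named among the early genes, where Junb was added after its values had been seen. The other probesets of Srf, Actb, Cald1, Tpm3, Itgb1, Wdr1 and Myh9, and the full values of Vcl, Cnn2 and Tpm4, were added after their values had been seen. Alternatives covered the groups fitted, variance model, array weights, probeset choice, normalization, threshold, replicate block, and arrays left out.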

Additional observations from a re-analysis of the deposited data

Results flagged for a closer look

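Among the 5 control arrays, replicate 3 lay far from the rest in 2 of 36 members. Fhl1, a LIM protein of muscle and adhesion sites, read 5.10 in control 3 and 5.32 to 5.38 in the others. Itgb1 read 9.81 in control 3 and 10.35 to 10.42 in the others. In each the gap to the nearest array was larger than the limit that chance passes in about 1 of 20 groups. Over all genes 4.85% passed that limit, beside 5.56% of the members, so 2 of 36 is close to the background.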

How the results depend on the processing

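Counts of members that passed are for Lipofectamine against control (0), heat shock against control (2), benzyl alcohol against control (0), Lipofectamine against heat shock (1), benzyl alcohol against Lipofectamine (6) and benzyl alcohol against heat shock (1). With 1 array left out they ranged over 0 to 3, 0 to 5, 0 to 0, 0 to 4, 0 to 8 and 0 to 7. Array weights, whose estimation stopped short of its convergence tolerance, gave 14, 13, 17, 20 and 9 in the comparisons other than benzyl alcohol against control. Fits of only the 2 groups compared gave 1 for heat shock against control and 7, 10 and 9 between the treatments. For Lipofectamine against control the mean of a gene's probesets gave 1 and renewed quantile normalization 2. For heat shock against control, all 14 arrays, a variance trend, equal array medians and a fold of at least 1.5 gave 1 each, and the unmoderated test, quantile normalization and the methods' threshold 0 each. Between Lipofectamine and heat shock the mean of probesets gave 3, quantile normalization 2, and removal of the dimmer probesets and the fold minimum 0. Tgfb1i1, with a mean signal of 6.57, was itself among the dimmer probesets removed, so it was not tested under that alternative. Between benzyl alcohol and Lipofectamine the unmoderated test gave 1, the methods' threshold 0 and the fold minimum 2. Between benzyl alcohol and heat shock the trend gave 3, removal of the dimmer probesets 5, quantile normalization 2, and the unmoderated test and the methods' threshold 0. Leaving out control 1 and 3 gave 12, 12, 0, 8, 12 and 9 in the order above, and leaving out control 2, 4 and 5 gave 0, 2, 9, 3, 13 and 9. The cause of these changes was not tested. The 18 members that differed between the control sets became 17, 17 and 18 under alternatives chosen after seeing the data. Over the 10 single-gene calls and 272 refits, 182 kept the call and 0 changed direction. Averaging all probesets of a gene gave 0.12 for Actn1 and -0.50 for Zyx between benzyl alcohol and Lipofectamine, and for Tpm1 -0.42 between heat shock and control and 0.65 between benzyl alcohol and heat shock.

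Replicate numbers did not pair the arrays (18 pairs, correlation of deviations -0.56 to 0.44, median 0.0015, 3 over 0.1). With the replicate block the counts were 0 for heat shock against control, 1 for benzyl alcohol against control, 0 for Lipofectamine against heat shock, 9 for benzyl alcohol against Lipofectamine (7 higher, 2 lower, with the call of Flna lost) and 6 for benzyl alcohol against heat shock.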
